A study of Mus musculus with 6 samples.

Results

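The fibroblast growth factor (FGF) ligands and receptors examined here were 10 genes, chosen by symbol from the 19730 rows of an RNA-seq expression table: the ligands Fgf1, Fgf2, Fgf7, Fgf9, Fgf10, Fgf18 and Fgf21, and the receptors Fgfr1, Fgfr2 and Fgfr3. Each symbol matched 1 row. The libraries came from mesangial cells of the mouse in primary culture, which support the capillaries of the kidney's filtering units and can contract, and formed a Control group of 3 and a TGF-β1-treated group of 3. Both groups were grown in high-glucose medium (25.5 mM) with 20% foetal bovine serum and used between passages 3 and 6, and the treated cells received transforming growth factor beta 1 (TGF-β1), a secreted driver of fibrosis, at 10 ng/ml for 72 h. The labels give no mouse strain, age or sex and do not say what the Control cells received or whether the 3 libraries of a group came from separate cultures, so the p-values measure only the spread between these libraries. The comparison asked how TGF-β1 changed the RNA of the FGF system in cultured mesangial cells.

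FGFs are secreted proteins that bind receptor tyrosine kinases together with heparan sulfate chains on the cell surface. Receptor binding recruits the docking protein FRS2 and activates the RAS-ERK cascade, which in turn induces its own inhibitors of the Sprouty, Spred and Dusp families. Most ligands act close to the cell that makes them. Fgf21 is an exception: it binds heparan sulfate poorly, circulates as a hormone and needs β-Klotho (Klb) as a co-receptor. Fgf2 is a known mitogen of mesangial cells. Fgf7 and Fgf10 are classically made by stromal cells and read by the splice form of Fgfr2 that epithelial cells make.

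Levels are given in FPKM, fragments scaled to transcript length and to the mapped fragments of the library, so they are scaled by length and can be set beside each other between genes. The libraries held about 10.1 to 11.1 M fragments (M stands for mega), estimated from the steps between low values, and an FPKM of 1 on a transcript of 2 kb then rests on 18.2 to 20 fragments. Changes are differences in log2(FPKM + 1), TGF-β1 minus Control, which understate the change of low genes, and a change was called at a limma adjusted p under 0.05. The labelled cell type was supported in part by its markers. Of 9 mesangial markers, Acta2 lay between 912 and 1091 FPKM in Control and Vim between 1922 and 2376, while Itga8, Des and Thy1 stayed below 1 in all 6 libraries. Pdgfrb (28.4 to 41.1 FPKM) and Serpine2 (9.32 to 13.7 FPKM) were present throughout, and Gata3 and Cspg4 were low (at most 2.42 and 1.37 FPKM). Of 7 endothelial markers 6 had a row, with a sum of 4.16 to 6.19 FPKM in Control and 2.52 to 4.02 FPKM after TGF-β1. Most of it was the Egfl7 row (3.78 to 5.83 and 2.22 to 3.67 FPKM), which may also hold RNA of Fam69b and Gm20532 from the same locus. Emcn reached 0.670 FPKM, and Cdh5 and Kdr were listed at 0.0244 FPKM or less. Of 7 macrophage markers 5 had a row, with a sum of 8.19 to 9.58 FPKM in Control and 2.26 to 3.24 FPKM after treatment. Csf1r went from between 5.52 and 7.37 to between 0.234 and 0.525 FPKM and Cd68 lay between 1.78 and 3.67 FPKM in all libraries, while Ptprc and Lyz2 were listed at 0.0811 FPKM or less. The replicate 2 libraries of both groups stood somewhat apart: their deviations from their group means correlated at r = 0.23 over the tested genes, against 0.12 at most when libraries with other numbers were paired across the groups.

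The table has 1 row for each transcribed locus, and this bears on 2 members. Of 505 pairs of protein-coding genes that share exon bases on the same strand, 0 had both genes in the table, against 1088 of 1336 pairs (81.4%) on opposite strands. In the mouse annotation used here (build mm9), Fgfr2 shares 314 exon bases on its own strand with Ctbp2, a widely expressed transcriptional corepressor that has no row of its own, through a gene model that runs over 3009069 bases of chromosome 7 (137305965 to 140315033, minus strand). RNA of Fgfr2 and of Ctbp2 therefore cannot be told apart in this row, which is called the Fgfr2 row throughout. Likewise Fgf2 (chromosome 3, 37211441 to 37304299, plus strand) shares 32 exon bases with Bbs12, a chaperonin-like gene of the primary cilium with no row of its own, and is called the Fgf2 row. The other 8 members have no protein-coding gene of another name in their locus. A second protein-coding entry of the annotation, also named Fgfr1, shares 761 exon bases with Fgfr1 on the same strand. Fgfr1 lies on chromosome 8 (26624126 to 26686186, plus strand), Fgfr3 on chromosome 5 (34064373 to 34079716, plus strand), Fgf7 on chromosome 2 (125860394 to 125916921, plus strand), Fgf9 on chromosome 14 (58689384 to 58731174, plus strand), Fgf10 on chromosome 13 (119458598 to 119580922, plus strand), Fgf18 on chromosome 11 (33017430 to 33047400, minus strand) and Fgf21 on chromosome 7 (52869277 to 52870860, minus strand).

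TGF-β1 treatment was followed by more Fgfr1 RNA and a lower Fgfr2 row, and the ligands split: Fgf1, the Fgf2 row and Fgf21 rose while Fgf7, Fgf9 and Fgf18 fell. The call of the Fgf2 row was fragile and was lost in 9 of 18 alternative settings. A mean of at least 1 FPKM was required for the main test, and 7 of the 10 members passed it. Of these, 3 were called higher and 4 lower, beside 48.1% of all 11898 tested genes called in either direction (24.5% higher and 23.6% lower). Fgf21 met that minimum only through its treated libraries and Fgf9 only through its Control libraries, so this count says little about the family. Fgf1, Fgf10 and Fgfr3 were below the minimum and were tested over all 19730 rows, of which 30.5% were called (14.6% higher and 16.0% lower); Fgf1 was called higher, Fgf10 lower and Fgfr3 was not called. Control and treated libraries did not overlap for 9 of the 10 members, against 44.1% of all rows and 59.4% of rows with a mean of at least 1 FPKM. In bulk RNA, a change in the number of cells that make a transcript and a change in its amount per cell cannot be told apart.

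**Figure D1:**
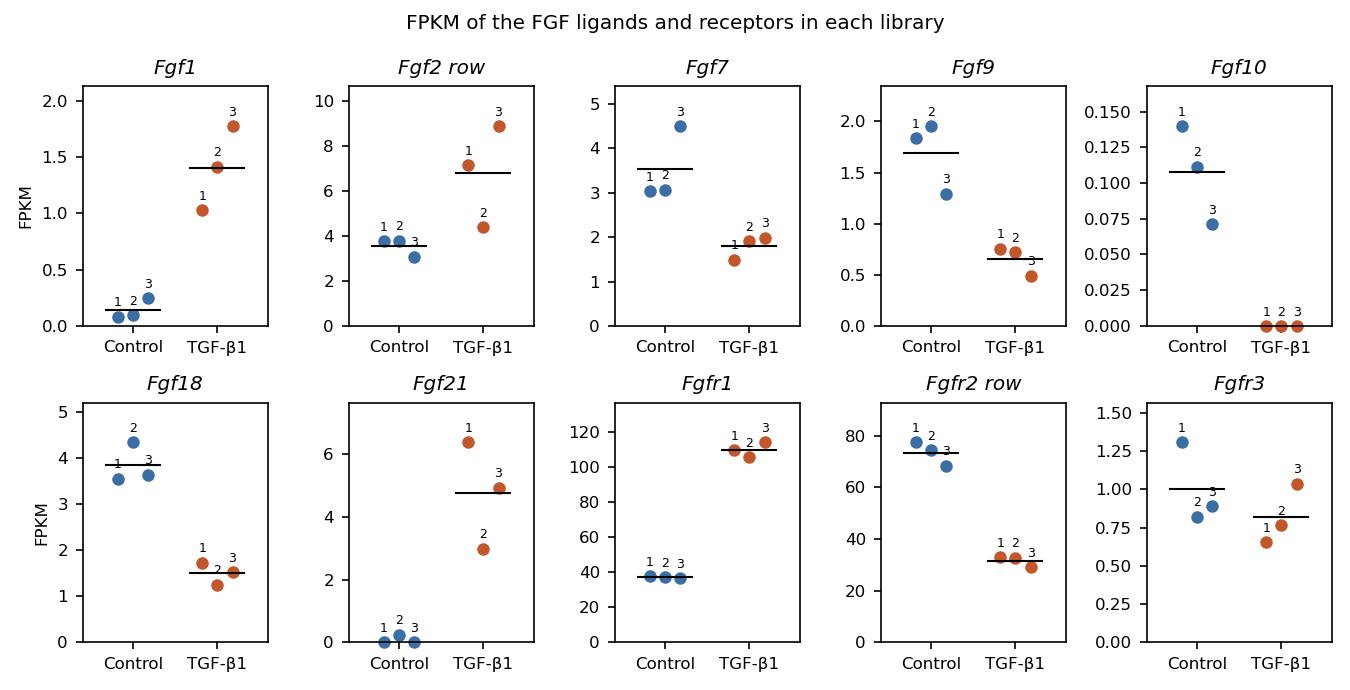
FPKM (linear axes from 0, one scale per panel) of the 10 FGF members in the 3 Control and 3 TGF-β1-treated libraries. Points are libraries, numbered by replicate, and lines are group means, left out where a library was listed at 0. The groups overlap in Fgfr3 alone, and Fgf10 is listed at 0 in all 3 treated libraries.

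Fgfr1, a receptor of mesenchymal cells, held 37.8, 37.3 and 36.5 FPKM in Control replicates 1 to 3 and 109.6, 105.8 and 114.1 FPKM in the treated replicates. Every treated library lay far above every Control library, and the spread within each group was small. The means were 37.2 ± 0.644 and 109.8 ± 4.13 FPKM (SD, n = 3 each), a ratio of 2.95. The difference was 1.54 on the log2 scale (SE 0.068, limma adjusted p = 2.55e-05) and was called under all 18 alternative settings, where it ranged from 1.34 to 1.56.  A long noncoding gene on the opposite strand, Gm16159, shares 125 exon bases with Fgfr1 and was listed at no more than 1.68 FPKM in any library, far below Fgfr1.

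The Fgfr2 row moved the other way. It held 77.4, 74.4 and 68.3 FPKM in Control and 33.0, 32.8 and 29.1 FPKM after TGF-β1, again with no overlap. Its means were 73.4 ± 4.61 and 31.6 ± 2.17 FPKM (SD, n = 3 each), and it fell by 1.19 on the log2 scale (SE 0.088, limma adjusted p = 1.54e-04), a ratio of Control to treated of 2.32. The epithelial markers Cdh16 (kidney cadherin) and Cldn2 (a tight junction claudin) fell in the same libraries, Cdh16 from between 113.9 and 146.1 to between 5.75 and 6.87 FPKM and Cldn2 from between 32 and 33.5 to between 0.561 and 0.608 FPKM. Of 8 epithelial markers 7 had a row, and their summed level was 146.3 to 180.1 FPKM in Control and 9.08 to 10.4 FPKM after TGF-β1, while Cdh1, Krt8 and Cldn7 stayed below 0.22 FPKM in every library. The remaining markers of that list moved the other way: Krt18 rose from between 0.150 and 0.386 to between 1.38 and 1.81 FPKM (limma adjusted p = 0.00143 over all rows), and Krt19 from between 0 and 0.298 to between 0.796 and 1.22 FPKM (0.00563). Whether epithelial cells were present, and whether they had a part in the Fgfr2 row, was not tested.

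Fgfr3, the third receptor, was low. Its Control libraries held 1.31, 0.820 and 0.889 FPKM and its treated libraries 0.656, 0.764 and 1.04 FPKM, so the groups overlapped. The difference of -0.14 on the log2 scale (95% interval -0.47 to 0.19, limma adjusted p = 0.492) missed the threshold, and the interval still allows a modest change in either direction. About 29 to 58.3 fragments stood behind each Fgfr3 value, which limits what could be detected. Fgfr4, the remaining receptor with a kinase, was listed at 0.122 to 0.178 FPKM in Control and at 0 to 0.0667 FPKM after TGF-β1; the difference of -0.15 on the log2 scale was called over all rows (limma adjusted p = 0.0448), at a level close to 0. Fgfrl1, an FGF-binding receptor without a kinase domain, was the only other family gene with a mean of at least 1 FPKM, and at 15.9 to 18.9 FPKM in Control and 18.8 to 19.1 FPKM after TGF-β1 it was not called (difference 0.09 on the log2 scale, limma adjusted p = 0.411, and -0.09 when libraries were scaled to a common sum of protein-coding genes).

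In each Control library the Fgfr2 row was the largest of the 3 receptor rows, and in each treated library Fgfr1 was. Fgfr1 made up 32.5%, 33.2% and 34.5% of the summed receptor FPKM in Control and 76.5%, 75.9% and 79.1% after TGF-β1. The means were 33.4% ± 1.06 and 77.2% ± 1.67 (SD, n = 3 each), with no overlap and a two-sided exact permutation p of 0.1, the smallest that 3 against 3 libraries can give. This share rests on the Fgfr2 row, whose Ctbp2 part is unknown. With that row left out, Fgfr1 was 97.4% ± 0.632 of the Fgfr1 and Fgfr3 sum in Control and 99.3% ± 0.154 after treatment (SD, n = 3 each). Set beside Fgfrl1, whose row holds no other protein-coding gene, Fgfr1 was 2, 2.35 and 1.98 times as high in Control and 5.74, 5.58 and 6.07 times as high after TGF-β1.

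**Figure D2:**
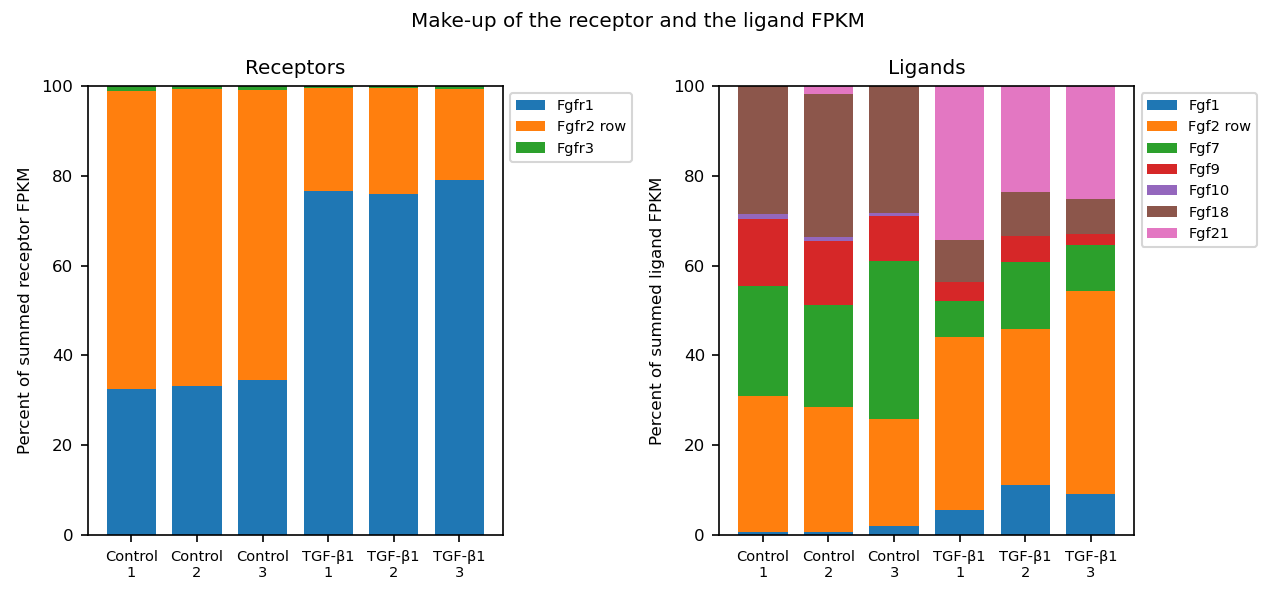
Percent of the summed FPKM of the 3 receptor rows (left) and of the 7 ligand rows (right) held by each gene, 1 bar per library. Fgfr1 goes from 32.5% to 34.5% of the receptor sum in Control to 75.9% to 79.1% after TGF-β1, and Fgf21 from 0% to 1.81% of the ligand sum to 23.6% to 34.4%.

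Among the ligands, Fgf21 changed most. It was listed at 0 in Control replicates 1 and 3 and at 0.247 FPKM in Control replicate 2, about 1.98 fragments. The treated libraries held 6.36, 2.98 and 4.92 FPKM, about 51.1, 22 and 38.8 fragments. All treated libraries lay above all Control libraries, with replicate 2 the lowest of the treated. The difference was 2.37 on the log2 scale (SE 0.246, limma adjusted p = 5.34e-04), and it was called under all 17 alternative settings. Its size moved with the pseudocount, from 2.37 with 1 added to 4.94 with 0.1 added, and no fold is given because Control libraries were listed at 0.

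Fgf21 is a known target of the transcription factor ATF4, which drives the cell's response to amino acid shortage and other stress, and in liver and fat of the nuclear receptors PPARα and PPARγ with their partner RXRα. Of 10 genes listed for these routes 9 were tested, and 6 were called higher and 1 lower, with a median difference of 0.57 on the log2 scale against -0.02 over all tested genes, of which 48.1% were called (24.5% higher and 23.6% lower). Trib3, a pseudokinase that ATF4 induces and that met the minimum level through its treated libraries alone, rose from 0.826, 0.904 and 0.762 FPKM to 29.7, 20.9 and 25.1 FPKM (log2 difference 3.83, limma adjusted p = 1.25e-05). Chac1, which degrades glutathione, rose from between 1.10 and 3.14 to between 18.7 and 19.7 FPKM, and Asns, the asparagine synthetase, from between 24.1 and 30.6 to between 136.6 and 159.4 FPKM. Atf4 itself rose from between 100.6 and 171 to between 356.6 and 383.3 FPKM (log2 difference 1.53, limma adjusted p = 0.00118). These 4 genes did not overlap between the groups, like 59.4% of all rows with a mean of at least 1 FPKM. They were named because their called changes were the largest of the list, so their lack of overlap adds little. The secreted stress factor Gdf15 was not called: it was listed at 28.5 and 32.8 FPKM in treated replicates 1 and 3 but at 0.419 FPKM in treated replicate 2, and at 5.66 to 20.1 FPKM in Control. Pparg was not called either (6.34 to 8.05 against 5.18 to 6.21 FPKM). Ppara, the listed gene below the minimum level, was listed at 0.0496 FPKM or less in every library. The gene called lower was Rxra, at 12.1 to 15.4 FPKM in Control and 5.58 to 6.35 FPKM after treatment. Klb, singled out here after its values were seen, had a mean below 0.02 FPKM in each group, so its RNA was barely detected in cells that made Fgf21 RNA.

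The sequences before the start of Fgf21 and of the ATF4 targets Asns and Chac1 are shown because all 3 hold the letters TGATGNAA, the pattern of composite elements bound by C/EBP and ATF factors. The pattern was searched on both strands in the 250 bases before each gene's start, taken from RefSeq (build GRCm38.p6), and it was present in 3.45% of 32851 such windows. Of the 8 members with an entry in that table it was found in Fgf21 alone, and of the 10 listed genes tied to Fgf21 in 2, Asns and Chac1. It was not found in the windows of Atf4, Ddit3, Trib3, Sesn2, Gdf15, Ppara, Pparg or Rxra, so most of the listed genes lack it there. Capitals mark the match, and each sequence reads 5′ to 3′ along its gene. A match is a description of these letters and shows no binding. The Fgf21 window (chr7:45615491-45615740, minus strand) holds the match in reverse complement, starting 139 bases before the start. The other stretches are from Asns (chr6:7693210-7693258, minus strand, match starting 23 bases before the start) and Chac1 (chr2:119351023-119351082, plus strand, match in reverse complement starting 193 bases before the start).
Fgf21: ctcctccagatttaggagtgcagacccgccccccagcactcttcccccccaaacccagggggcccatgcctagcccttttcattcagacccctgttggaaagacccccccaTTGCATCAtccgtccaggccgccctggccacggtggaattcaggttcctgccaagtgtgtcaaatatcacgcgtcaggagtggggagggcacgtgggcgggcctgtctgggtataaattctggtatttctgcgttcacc
Asns: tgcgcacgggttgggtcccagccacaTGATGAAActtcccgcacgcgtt
Chac1: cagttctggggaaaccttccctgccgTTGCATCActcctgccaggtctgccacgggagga

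The Fgf21 window also holds the SMAD box letters CAGAC, on either strand, at 3 places. SMAD proteins carry the TGF-β signal to the genome, but these letters are common: 42.2% of all windows hold them, and among members they were also found in the windows of Fgf2, Fgf7, Fgf9 and Fgf18. The AP-1 pattern TGANTCA was present in 6.75% of windows and in none of the 8 members with an entry.

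Fgf1, which can bind all FGF receptors, rose from a level close to 0. Its Control libraries held 0.0804, 0.0958 and 0.247 FPKM, about 3.38 to 10.1 fragments, and its treated libraries 1.03, 1.41 and 1.78 FPKM, about 42.8 to 72.6 fragments. The groups did not overlap, and the difference was 1.07 on the log2 scale (SE 0.136, limma adjusted p = 0.00242). The ratio of the means was 9.96, on a Control mean that rests on few fragments. With replicates 1 and 3 alone the call was lost (limma adjusted p = 0.0716), at a difference of 1.03.

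The Fgf2 row was called higher with a wider spread. It held 3.76, 3.79 and 3.07 FPKM in Control and 7.13, 4.39 and 8.88 FPKM after TGF-β1, and treated replicate 2 lay close to the Control libraries. The means were 3.54 ± 0.410 and 6.80 ± 2.26 FPKM (SD, n = 3 each), with a difference of 0.74 on the log2 scale (SE 0.228, limma adjusted p = 0.037). This call was fragile. It was lost without Control replicate 1 (adjusted p = 0.0803), Control replicate 2 (0.0788), Control replicate 3 (0.104), treated replicate 1 (0.108) or treated replicate 3 (0.0937), in limma fits of 5 libraries, and without treated replicate 2 the difference was 0.98 (limma adjusted p = 0.00503). Nudt6, whose transcript runs antisense to Fgf2 and shares 242 exon bases with it, was not called (6.60, 11.2 and 7.68 FPKM against 7.02, 8.26 and 5.07 FPKM). Neither was Cetn4, a centrin gene on the opposite strand that shares 55 exon bases (limma adjusted p = 0.818). How the reads were assigned to strands is not given in the sources used here.

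Fgf18, Fgf7 and Fgf9 were the ligands called lower among those that passed the minimum level. Fgf18, a growth factor of bone and lung, held 3.54, 4.33 and 3.63 FPKM in Control and 1.73, 1.25 and 1.51 FPKM after TGF-β1. It fell by 0.95 on the log2 scale (SE 0.126, limma adjusted p = 0.00143), from 3.83 ± 0.431 to 1.5 ± 0.238 FPKM (SD, n = 3 each), and was called under all 17 alternative settings. Fgf7, also called keratinocyte growth factor, held 3.04, 3.07 and 4.50 FPKM in Control and 1.49, 1.90 and 1.99 FPKM after treatment. It fell by 0.69 (SE 0.162, limma adjusted p = 0.0143), a ratio of Control to treated of 1.97. Fgf9, a ligand of the developing kidney and gonad, held 1.83, 1.96 and 1.29 FPKM in Control and 0.757, 0.722 and 0.491 FPKM after treatment. It fell by 0.70 (SE 0.154, limma adjusted p = 0.0111), a ratio of 2.58. None of the 3 overlapped between the groups, like 59.4% of all rows with a mean of at least 1 FPKM. Fgf9 rested on about 16 to 64.8 fragments per library. With replicates 1 and 3 alone, Fgf7 (limma adjusted p = 0.0542) and Fgf9 (0.053) were no longer called.

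Fgf10, a stromal ligand that resembles Fgf7 in its receptor use, was at the edge of detection. It was listed at 0.140, 0.111 and 0.0711 FPKM in Control, about 6.08, 4.8 and 3.01 fragments, and at 0 in each treated library. The difference of -0.15 on the log2 scale was called over all rows (limma adjusted p = 0.0346). It was lost in 9 of 17 alternative settings: without treated replicate 1 (limma adjusted p = 0.0632), 2 (0.0547) or 3 (0.0594), with replicates 1 and 3 alone (0.116), with the replicate number as a block (0.0884), with replicate 2 as a batch term (0.0573), under quantile normalization (0.0633), without the variance trend (0.0911) and at a threshold of 0.01. No fold can be given against a group listed at 0.

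**Figure D3:**
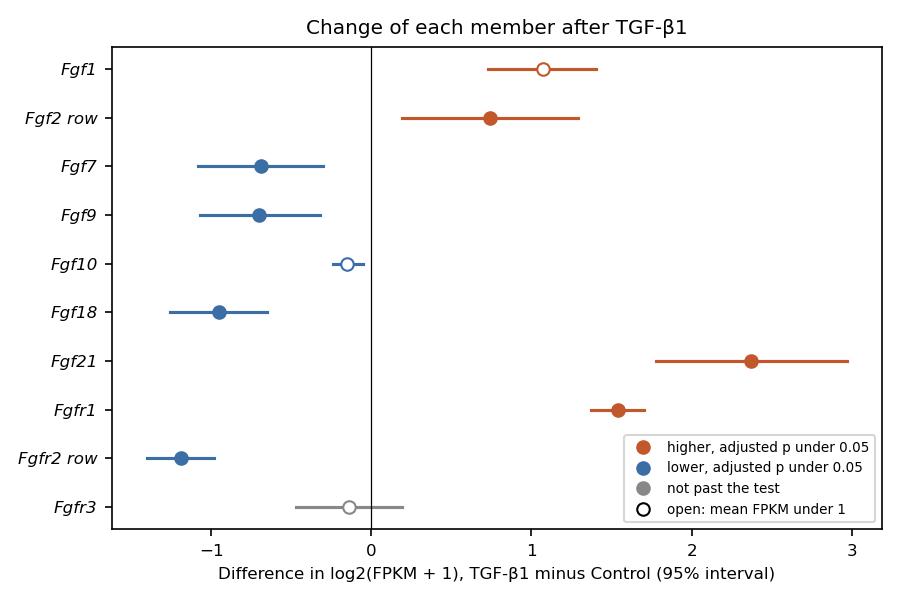
Difference in log2(FPKM + 1), TGF-β1 minus Control, of each member with its 95% interval from limma (n = 3 per group); open points are members with a mean below 1 FPKM, tested over all rows. Fgf21 (2.37) and Fgfr1 (1.54) lie farthest to the right, the Fgfr2 row (-1.19) farthest to the left, and the interval of Fgfr3 crosses 0.

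The order of the ligands changed with treatment. In Control, Fgf18, the Fgf2 row and Fgf7 had the highest means (3.83, 3.54 and 3.54 FPKM) and neighbours in that order overlapped, so their order was not resolved. Fgf9 followed, below the lowest Fgf7 library, and Fgf1, Fgf10 and Fgf21 formed an overlapping group close to 0. After TGF-β1 the Fgf2 row and Fgf21 stood highest and overlapped, and the lowest Fgf21 library (2.98 FPKM) lay above the highest Fgf7 library (1.99 FPKM). Fgf7, Fgf18 and Fgf1 came next, each overlapping its neighbour. Fgf21 made up 34.4%, 23.6% and 25.1% of the summed ligand FPKM in the treated libraries against 0%, 1.81% and 0% in Control, and Fgf18 went from between 28.3% and 31.8% of it to between 7.74% and 9.88%.

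The summed ligand level did not separate the groups. It was 12.4, 13.6 and 12.8 FPKM in Control and 18.5, 12.7 and 19.6 FPKM after TGF-β1, with means of 12.9 ± 0.610 and 16.9 ± 3.72 FPKM (SD, n = 3 each). The difference of 3.97 FPKM gave a two-sided exact permutation p of 0.3. It was 6.09 FPKM without treated replicate 2, 2.64 FPKM without treated replicate 3 and 0.713 FPKM with the Fgf2 row left out, an alternative chosen after seeing the data.

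Genes around the receptor were taken from lists of FGF signalling genes. Their counts are read beside the 48.1% of all tested genes that were called (24.5% higher and 23.6% lower). Targets of the FGF-ERK route were mostly called higher: all 18 were tested, 12 were called higher and 3 lower. Their median difference was 0.94 on the log2 scale, against -0.02 over all tested genes. Spry4, counted among those called higher, met the minimum level through its treated libraries alone. It lay at 0.495 to 0.681 FPKM in Control and at 1.58 to 2.61 FPKM after treatment. With replicates 1 and 3 alone the counts were again 12 and 3. These genes respond to many signals through ERK and not to FGF alone. Myc, the growth-promoting transcription factor, rose from between 6.77 and 7.94 to between 32.9 and 39.5 FPKM (log2 difference 2.11, limma adjusted p = 3.53e-05). Dusp4, a phosphatase that removes phosphate from ERK, rose from between 1.13 and 1.85 to between 6.03 and 9.38 FPKM. The ETS factors Etv4 and Etv5, classical readouts of FGF activity, rose from between 12.0 and 14.9 to between 45.3 and 47.8 FPKM and from between 1.54 and 1.8 to between 6.26 and 9.40 FPKM. The 3 genes called lower, named here after their values were seen, were the ERK inhibitor Spry2 (log2 difference -0.68) and the immediate early genes Egr1 (-1.33) and Fos (-1.29). Phlda1, at 36.2 to 50.2 against 44.9 to 81.1 FPKM, and Il17rd, an inhibitor of FGF receptors at 2.24 to 2.53 against 2.46 to 3.15 FPKM, were not called.

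Enzymes that build and trim heparan sulfate, the cofactor of FGF binding, also counted mostly higher. Of 17 listed 14 were tested, 9 called higher and 1 lower, beside 24.5% and 23.6% of all tested genes. Their median difference was 0.51, against -0.02 over all tested genes. Hs3st3b1, counted among those called higher, met the minimum level through its treated libraries alone. It lay at 0.670 to 0.9997 FPKM in Control and at 1.47 to 1.71 FPKM after treatment. Glce, which epimerises the chain's uronic acid, rose from between 3.58 and 4.77 to between 13.9 and 15.9 FPKM (log2 difference 1.56, limma adjusted p = 1.68e-04). Hs3st1, a sulfotransferase, rose from between 7.74 and 9.62 to between 24.6 and 26.5 FPKM. Sulf1, which removes sulfate groups from the finished chain and is known as a negative regulator of FGF signalling, rose from between 4.29 and 4.99 to between 14.2 and 15.8 FPKM. Ext1, a chain polymerase, rose from between 92.8 and 97.1 to between 196.8 and 237.1 FPKM. Hs6st2 and Ndst1 were not called. With replicates 1 and 3 alone, 7 were called higher and 0 lower, by limma at an adjusted p under 0.05. In the main test the genes called higher included builders of the chain and both Sulf1 and Sulf2, which remove sulfate groups. Sulf2 rose from between 54.5 and 69.7 to between 77.1 and 82.8 FPKM (log2 difference 0.38, limma adjusted p = 0.025).

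The other lists were mixed. Of 11 FGF cofactors 7 were tested, 2 called higher and 2 lower, and the sign of their median (-0.10) turned to 0.06 under quantile normalization. Ncam1, an adhesion molecule that binds FGF receptors, rose from between 36.4 and 43.7 to between 85.0 and 105.6 FPKM, and Flrt2, a membrane protein of a family that binds FGF receptors, from between 6.12 and 6.79 to between 11.1 and 12.4 FPKM. Cdh2, the N-cadherin that stabilises Fgfr1, fell from between 106.4 and 127 to between 61.6 and 67.1 FPKM, and the FGF carrier Fgfbp3 from between 2.93 and 3.67 to between 1.95 and 2.03 FPKM. Nrp1 and Lgals3 were not called.

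Of 13 receptor adaptors 11 were tested, 3 called higher and 3 lower, with a median of 0.13 that turned to -0.05 when libraries were scaled to a common sum of protein-coding genes; under that scaling, and with replicates 1 and 3 alone, 1 was called higher and 3 lower. The adaptor Crk rose by 0.97 and the RAS activator Sos2 by 0.45 on the log2 scale, while the docking protein Gab1 fell by 0.63 and the transcription factor Stat3 by 0.61. Grb2, the adaptor that links FRS2 to RAS activation, and Plcg1 were not called. Of 6 factors that control receptor splicing 4 were tested and 0 were called by limma, and 0 at an unadjusted p under 0.05. Hnrnpa1 and Ptbp1 were among those not called. Under the protein-coding scaling and under quantile normalization 2 were called lower. Esrp1 had no row, and Esrp2 was below the minimum level at 0.112 to 0.401 FPKM over all libraries.

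**Figure D4:**
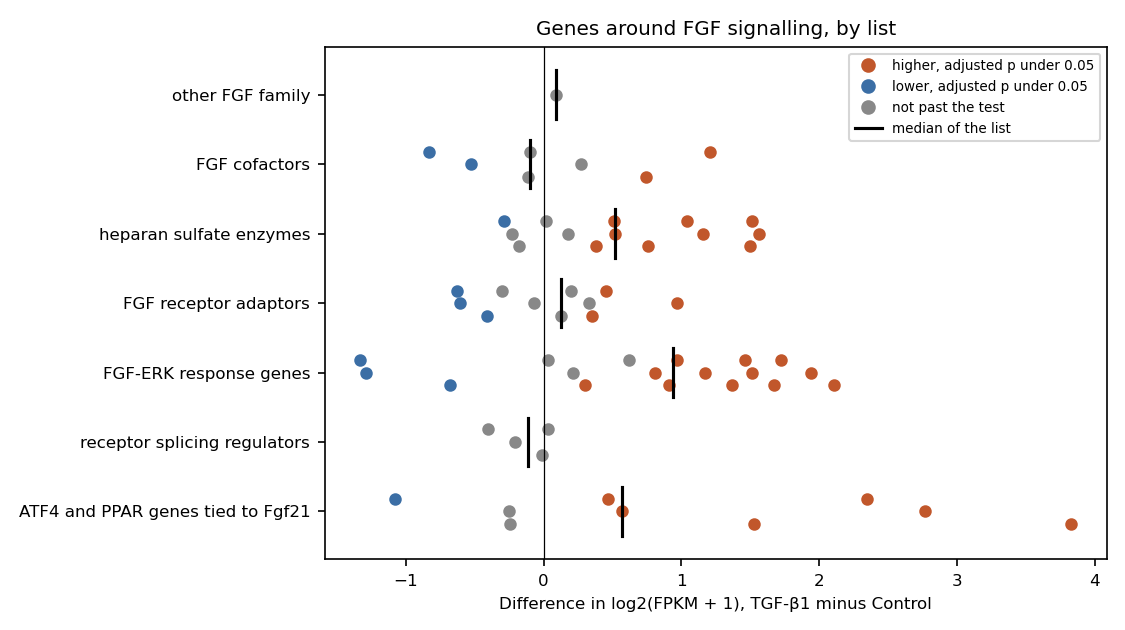
Difference in log2(FPKM + 1), TGF-β1 minus Control, of each tested gene in 7 lists around FGF signalling; each point is a gene, coloured by its call, and black bars are list medians. The FGF-ERK response genes (median 0.94) and the heparan sulfate enzymes (median 0.51) lie mostly to the right, and the cofactors, adaptors and splicing regulators lie on both sides of 0.

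Genes whose pattern was most like Fgf21 and Fgfr1 were found by the root mean square difference of log2(FPKM + 1), centred on each gene's mean, over the 6 libraries and 10844 other protein-coding genes. Nearest to Fgf21 were Cldn4 (0.136), Sox8 (0.154) and Nat8l (0.223), with mean levels of 0.189, 1.44 and 0.451 FPKM in Control and 4.85, 9.89 and 7.70 FPKM after TGF-β1. Nearest to Fgfr1 were the collagen gene Col5a1 (0.0504), Tbc1d1 (0.0511) and Stk17b (0.0555). Col5a1 had means of 39.9 and 120 FPKM in the Control and treated groups, close to those of Fgfr1 also in level.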

How the data were processed

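RNA-seq was made from total RNA of 3 Control and 3 TGF-β1-treated samples labelled as primary mouse mesangial cells. The authors aligned reads to the mouse genome (mm9; TopHat2 2.0.11 per the submitters' processing notes), estimated FPKM with Cufflinks and deposited 1 FPKM value per row and library; the gene annotation is not given in the sources used here. No counts were used. Rows were matched to the mm9 annotation of Ensembl by transcript identifier (19699 of 19730).

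Values were tested as log2(FPKM + 1) with limma 3.58.1 in R 4.3.3 (trended variance, Benjamini-Hochberg adjustment over all tested rows), with a minimum mean of 1 FPKM over the 6 libraries; members below it were tested without the minimum. The fit was tested on simulated data. Shares and sums used exact permutation tests over libraries. Fragment numbers were recovered from the steps between low values, assuming fragments of 200 bases, and 99.4% to 99.9% of values fell within 0.1 of a whole fragment. Alternatives changed the pseudocount, minimum, scaling, variance trend, threshold, replicate terms and libraries.

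The members and gene lists were chosen with earlier results of these data known. Named genes were all members, other family genes with a mean of at least 1 FPKM in either group, and from each pathway list up to 4 called genes with the largest change and up to 2 uncalled genes with the highest level, plus the 3 nearest patterns of 1 ligand and 1 receptor. Marker genes, Fgfr4, Klb, Ppara, Spry4, Hs3st3b1, Sulf2, Esrp1, Esrp2 and genes called against their list's direction were named outside this rule, after their values were seen.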

Additional observations from a re-analysis of the deposited data

How the results depend on the processing

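Fgf18, Fgf21, Fgfr1 and the Fgfr2 row kept their direction and call under every alternative in which they were tested; with a minimum mean of 3 FPKM Fgf18 and Fgf21 were not tested. Of the 7 members that passed the minimum, 7 were called, beside 48.1% of all tested genes. Fgf21 and Fgf9 passed it through 1 group only. With a minimum mean of 3 FPKM 3 members were tested and 3 called, beside 4904 of 9941 genes. At an adjusted p under 0.01 the count of members was 4. Over all 11898 tested genes, 5721 were called, and 3672 at an adjusted p under 0.01. Leaving out 1 library at a time gave 4419 to 5446 genes and 6 to 7 members. Scaling to a common sum of protein-coding genes moved the median of all genes by -0.19 on the log2 scale and gave 2015 genes higher and 3928 lower, against 2911 and 2810. The Fgf2 row lost its call there (limma adjusted p = 0.0703) and with no minimum (0.0627). Fgf9 (0.0694) and Fgf10 (0.0633) lost theirs under quantile normalization, where the Fgfr3 difference turned to 0.06, and Fgf10 also without the variance trend (0.0911) and with replicate 2 as a batch term (0.0573).

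With the replicate number as a block, 5391 genes and 6 members were called, and the Fgf2 row (limma adjusted p = 0.0569) and Fgf10 (0.0884) lost their calls. The labels do not say what a number marks, so the numbers were not taken as pairs in the main test. The deviations of same-numbered libraries correlated at 0.092, 0.23 and 0.085. Those of libraries with other numbers correlated at -0.19 to 0.12, and most of these values were negative. Control replicate 1 correlated best with treated replicate 3. In the block form, the Fgfr1 share differed by 43.8 percentage points (exact sign-flip p = 0.25, the smallest possible) and the summed ligand level by 3.97 FPKM (p = 0.5). The Fgfr1 share differed by 42.8 to 44.4 points without 1 library, by 42.9 with 1 added to each value, and by 1.89 with the Fgfr2 row left out, an alternative chosen after seeing the data. The summed ligand level differed by 2.64 to 6.09 FPKM without 1 library and by 1.94 FPKM under the protein-coding scaling. Low fragment numbers limit Fgf1, Fgf10, Fgf9 and Fgfr3.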
